A study of Homo sapiens with 4 samples.

Results

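Metallothioneins are small cysteine-rich proteins that bind zinc and copper ions, and also cadmium. The analysis took every probe set that the PrimeView annotation pairs with exactly 1 symbol out of MT1A, MT1B, MT1E, MT1F, MT1G, MT1H, MT1M, MT1X, MT2A and MT3. This gave 16 probe sets of the 49293 on the array, for 9 of the 10 listed genes, and MT1A had no such probe set. RNA came from Hs578T, an established human breast cancer line with mesenchymal features, grown in medium with serum and insulin. The ELK3 knockdown group had 2 arrays, numbered 1 and 5, from cells stably transduced with lentiviral shRNA against ELK3, and the sh control group had 2 arrays, numbered 1 and 2. ELK3 encodes an ETS family transcription factor that acts with serum response factor, and the series addresses its relation to CXCL16 and natural killer cells. What the array numbers denote (an shRNA, a clone, a culture) and what the control construct carries is not given in the labels. The p-values therefore measure only the spread between these arrays, which may be technical. For each probe set, limma combines its own spread with that of all probe sets.

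In the textbook account, free zinc activates the transcription factor MTF-1, which binds metal response elements in metallothionein promoters, and the newly made protein buffers the zinc. Glucocorticoids, oxidative stress and cytokines also induce the genes, and in human they lie side by side in 1 cluster on chromosome 16. MT2A and the MT1 genes are active in many tissues, whereas MT3 is best known from the brain. The paralogs are close to identical in sequence, so a probe set can read more than 1 of them. The names of 11 of the 16 probe sets end in _s_at or _x_at, which marks cross-hybridisation on this platform.

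Most metallothioneins were lower in the ELK3 knockdown arrays. With the adjusted p-value under 0.05, 13 of the 16 probe sets fell, against 22.1% of all probe sets, and 2 rose, both of MT1F, against 27.0% of all. By 1 probe set per gene, 8 of 9 genes fell and 1 rose, where 21.3% of the 18132 genes on the array fell and 29.5% rose. Taking instead a fold over 1.5 with an unadjusted p under 0.05, as the series did, 14 of the 16 probe sets passed, against 30.5% of all, and 9 of 9 genes, against 31.7% of all. The median difference, ELK3 knockdown minus sh control, was -1.44 on the log2 scale over the 16 probe sets and -0.02 over all probe sets. The falls ran in size from MT1M, at 70.4-fold, to MT1H, at 1.56-fold, in probe sets past the threshold. The signals of the groups did not overlap in any of the 16, which was also so for 74.5% of all probe sets. In bulk RNA, fewer cells that express a gene and less of its RNA per cell cannot be told apart.

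The promoters of 4 members are shown because the family is known for the repeated metal response elements in them. RefSeq entries (GRCh38.p14) were matched for MT1B, MT1H, MT1X and MT2A, and each runs from 250 bases before the gene's start to 50 bases from it on. They are written 5′ to 3′ with the core of the metal response element in capitals, searched as TGCACNC or TGCGCNC on both strands.
MT2A promoter, chr16:56608334-56608633, + strand: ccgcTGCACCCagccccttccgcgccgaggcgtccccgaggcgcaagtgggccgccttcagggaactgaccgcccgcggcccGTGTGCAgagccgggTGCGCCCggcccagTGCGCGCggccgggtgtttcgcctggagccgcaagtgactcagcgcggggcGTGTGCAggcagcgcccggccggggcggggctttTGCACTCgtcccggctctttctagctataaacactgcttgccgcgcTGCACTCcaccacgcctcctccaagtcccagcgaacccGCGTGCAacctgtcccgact
MT1X promoter, chr16:56682220-56682519, + strand: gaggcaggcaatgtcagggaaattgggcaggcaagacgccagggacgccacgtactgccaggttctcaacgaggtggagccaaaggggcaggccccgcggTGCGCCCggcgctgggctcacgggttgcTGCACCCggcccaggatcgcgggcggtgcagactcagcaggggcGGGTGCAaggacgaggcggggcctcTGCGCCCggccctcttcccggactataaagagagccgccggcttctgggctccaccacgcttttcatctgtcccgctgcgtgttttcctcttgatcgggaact
MT1H promoter, chr16:56669564-56669863, + strand: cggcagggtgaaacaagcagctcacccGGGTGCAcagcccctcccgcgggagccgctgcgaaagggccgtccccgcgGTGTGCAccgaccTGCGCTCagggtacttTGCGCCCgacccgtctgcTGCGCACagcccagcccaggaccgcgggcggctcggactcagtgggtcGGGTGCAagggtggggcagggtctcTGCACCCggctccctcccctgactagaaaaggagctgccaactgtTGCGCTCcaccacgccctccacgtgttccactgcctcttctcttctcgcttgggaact
MT1B promoter, chr16:56651636-56651935, + strand: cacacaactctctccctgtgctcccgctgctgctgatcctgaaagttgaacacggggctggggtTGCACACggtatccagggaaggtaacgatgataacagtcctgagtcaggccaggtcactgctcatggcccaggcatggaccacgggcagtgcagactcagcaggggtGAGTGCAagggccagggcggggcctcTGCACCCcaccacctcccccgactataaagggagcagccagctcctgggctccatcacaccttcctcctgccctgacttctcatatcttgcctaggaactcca

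MT2A and MT1H each held 8 matches, a number reached by 0.0199% of the 35116 promoters in the table. MT1X held 4, reached or passed by 0.601% of them, and MT1B held 3, reached or passed by 2.30%. At least 1 match was present in 29.6% of all promoters. A match lay at almost the same place in all 4, with its first base at position -53 from the start in MT1X, MT1H and MT1B and at -54 in MT2A. An AP-1 site, searched as TGACTCA on both strands, occurred once in MT2A, at -104, and once in MT1B, at -146, against 4.95% of all promoters. The ETS sequence CCGGAAGT, present in 4.14% of all promoters, and the CArG box of serum response factor, present in 1.29%, were not found in these windows. The shorter ETS core CGGAA occurred once, in MT2A at -233, and in 34.9% of all promoters. None of the AP-1 or ETS matches overlapped a capital stretch. The 2 promoters with 8 matches belong to MT2A, which was 3.75-fold lower by its brighter probe set, and MT1H, which was 1.56-fold lower. The names of both these probe sets mark cross-hybridisation. The other 6 members, MT1M and MT1E among them, had no promoter entry. Whether the number of matches goes with the size of the change was not tested.

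**Figure D1:**
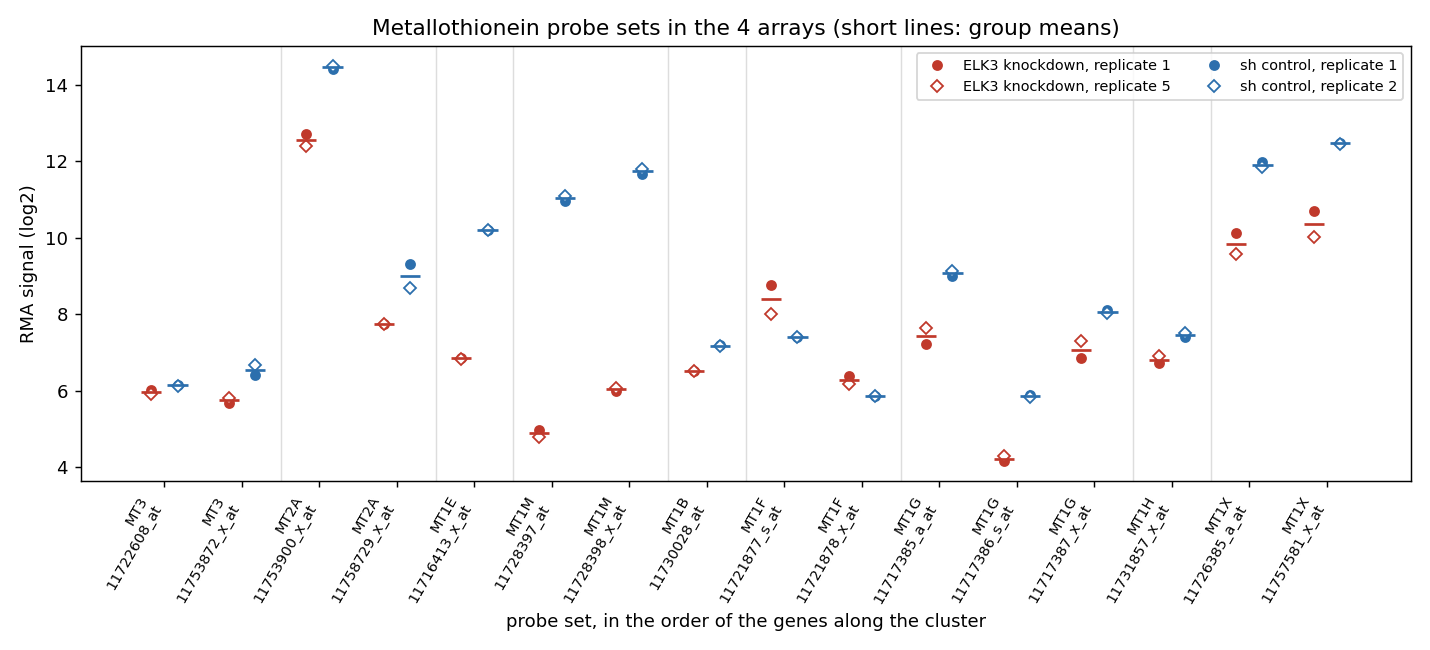
RMA signal on the log2 scale (vertical axis) of the 16 metallothionein probe sets (horizontal axis, in gene order along the cluster), with ELK3 knockdown arrays in red on the left of each pair and sh control arrays in blue on the right; short lines are group means of 2 arrays. MT1M and MT1E show the widest separation, and MT1F is the gene whose red points lie above the blue ones.

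MT1M, an MT1 isoform gene, had the largest fall of the family. Its probe set 11728397_at read 4.97 and 4.80 in ELK3 knockdown replicates 1 and 5, and 10.96 and 11.09 in sh control replicates 1 and 2. The groups lay about 6 log2 units apart, with the knockdown arrays 0.17 and the control arrays 0.13 from each other. The mean was 4.89 ± 0.12 in the knockdown arrays and 11.03 ± 0.10 in the controls (SD, n = 2 each), a log2 difference of -6.14 (SE 0.11, limma adjusted p = 8.89e-08). A larger fall was measured in 0.172% of all probe sets. The knockdown mean lies near the dim end, where 23.0% of all array values are lower, and the effect of low signal on this fold was not tested. Probe set 11728398_x_at read 6.001 and 6.07 in the knockdown arrays and 11.67 and 11.81 in the control arrays, 52.1-fold lower (log2 difference -5.70, SE 0.09, adjusted p = 6.49e-08). Both probe sets put MT1M high in the controls and at a low signal in the knockdown arrays.

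The same separation was read by probe sets outside the 16. MT1JP, a metallothionein pseudogene, was read by a probe set whose name marks cross-hybridisation. It read 4.54 and 4.78 in the knockdown arrays and 9.91 and 10.21 in the control arrays (log2 difference -5.40, SE 0.14, limma adjusted p = 3.46e-07). A probe set annotated with MT1JP, MT1M and MT1P3 together differed by -5.58, and no gene is named from it. Probes for MT1M and MT1JP cannot be taken as separate measurements, since both names stand on 1 probe set.

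MT1E, another MT1 isoform gene, was read by 1 probe set, whose name marks cross-hybridisation. It read 6.86 and 6.82 in the knockdown arrays and 10.20 and 10.20 in the control arrays. Arrays of 1 group differed by under 0.04, and the groups by -3.35 (SE 0.08, adjusted p = 2.77e-07), which is 10.2-fold lower. Of all probe sets, 1.17% had a larger fall.

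MT1X, an isoform gene that responds to metals in many cell types, fell in both of its probe sets. Probe set 11757581_x_at read 10.69 and 10.02 in the knockdown arrays and 12.48 and 12.46 in the control arrays, 4.34-fold lower (log2 difference -2.12, SE 0.19, adjusted p = 7.97e-05). Probe set 11726385_a_at read 10.11 and 9.56 in the knockdown arrays and 11.97 and 11.84 in the control arrays, 4.19-fold lower (log2 difference -2.07, SE 0.16, adjusted p = 4.23e-05). Knockdown replicate 5 was the lower of the 2 knockdown arrays in both. The 2 estimates come from the same arrays and are not independent, and the name of 11757581_x_at marks cross-hybridisation.

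MT2A, the isoform gene usually described as the most widely expressed in human tissues, also fell in both probe sets. Probe set 11753900_x_at read 12.71 and 12.39 in the knockdown arrays and 14.41 and 14.50 in the control arrays (log2 difference -1.91, SE 0.10, adjusted p = 5.18e-06). Its control signals stood close to the highest value on any array, 14.61, and the effect of saturation on the difference was not tested. Probe set 11758729_x_at read 7.74 and 7.75 in the knockdown arrays and 9.32 and 8.69 in the control arrays, 2.39-fold lower (log2 difference -1.26, SE 0.19, adjusted p = 0.00108). Here the control arrays were 0.62 apart, a gap exceeded by 0.343% of all probe sets, while the brighter probe set had them 0.08 apart. The names of both MT2A probe sets mark cross-hybridisation, so no MT2A value remains when such probe sets are left out.

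MT1G, an isoform gene often studied as silenced in tumours, fell in its 3 probe sets. Probe set 11717385_a_at read 7.22 and 7.65 in the knockdown arrays and 9.002 and 9.13 in the control arrays, 3.10-fold lower (log2 difference -1.63, SE 0.15, adjusted p = 8.72e-05). The log2 differences of the other 2 were -1.65 (11717386_s_at, SE 0.11) and -0.995 (11717387_x_at, SE 0.16), with adjusted p = 1.59e-05 and 0.00143. The names of both mark cross-hybridisation. Probe set 11717386_s_at read 4.15 and 4.28 in the knockdown arrays and 5.89 and 5.84 in the control arrays. These signals were all below the median of all array values, 6.78, and the effect of low signal was not tested. In all 3 the knockdown arrays lay below the control arrays, and knockdown replicate 1 was the lower of the 2 knockdown arrays.

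MT1B, MT1H and MT3 had smaller falls. MT1B read 6.51 and 6.51 in the knockdown arrays and 7.19 and 7.16 in the control arrays (log2 difference -0.67, SE 0.11, adjusted p = 0.00141). MT1H read 6.73 and 6.89 in the knockdown arrays and 7.40 and 7.51 in the control arrays (log2 difference -0.64, SE 0.11, adjusted p = 0.00272). Of all probe sets, 12.0% and 12.5% had a larger fall than MT1B and MT1H. The 2 probe sets of MT3, the growth inhibitory factor of the brain, gave different calls. Probe set 11753872_x_at read 5.69 and 5.82 in the knockdown arrays and 6.40 and 6.67 in the control arrays (log2 difference -0.78, SE 0.14, adjusted p = 0.00237). Probe set 11722608_at, whose name does not mark cross-hybridisation, read 6.01 and 5.91 in the knockdown arrays and 6.15 and 6.13 in the control arrays. Its difference of -0.18 (95% interval -0.44 to 0.09, adjusted p = 0.248) did not pass. All MT3 signals were below the median of all array values, 6.78, and the deposited values come with no detection call.

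MT1F was the exception in direction. Probe set 11721877_s_at read 8.78 and 8.01 in the knockdown arrays and 7.41 and 7.40 in the control arrays, 1.98-fold higher (log2 difference 0.99, SE 0.22, adjusted p = 0.00853). Knockdown replicate 1 was 0.76 above knockdown replicate 5, a gap exceeded by 0.554% of all probe sets, yet both lay above the controls. Probe set 11721878_x_at read 6.40 and 6.18 in the knockdown arrays and 5.86 and 5.85 in the control arrays (log2 difference 0.43, SE 0.12, adjusted p = 0.0244). Its call was lost without knockdown replicate 1, at 0.32, without control replicate 1, at 0.43, and without control replicate 2, at 0.42. It also did not pass an adjusted p under 0.01 or, at 1.35-fold, a fold over 1.5. The control arrays differed by 0.00980 in both MT1F probe sets, and whether the probe sets share probes was not tested. Both names mark cross-hybridisation, so the rise of MT1F has no value when such probe sets are left out.

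The 2 knockdown arrays differed from each other in this family more than the 2 control arrays did. The median size of the gap over the 16 probe sets was 0.17 between knockdown arrays and 0.09 between control arrays, against 0.12 and 0.09 over all probe sets. The sign of the gap between knockdown arrays varied over the probe sets. It differed between the probe sets of 1 gene for MT1M (0.17 and -0.07), MT2A (0.32 and -0.02) and MT3 (0.11 and -0.13). Knockdown replicate 1 was above replicate 5 by 0.68 and 0.55 in the MT1X probe sets, by 0.76 and 0.22 in those of MT1F and by 0.32 in the brighter MT2A probe set. It was below replicate 5 by 0.43, 0.13 and 0.45 in the MT1G probe sets and by 0.17 in MT1H. The largest gap between control arrays was that of the dimmer MT2A probe set.

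**Figure D2:**
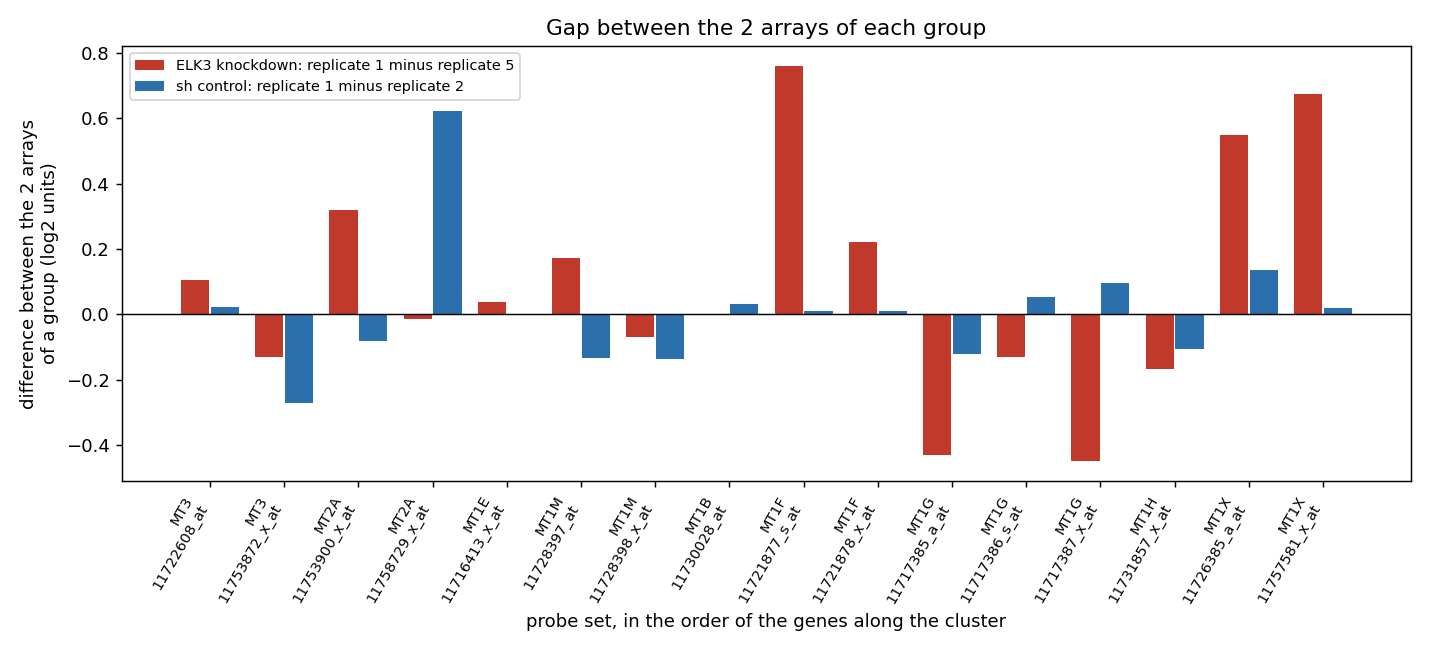
Difference in log2 signal between the 2 arrays of a group (vertical axis) for each metallothionein probe set (horizontal axis), ELK3 knockdown in red (replicate 1 minus replicate 5) and sh control in blue (replicate 1 minus replicate 2). The red bars point up for MT1X, MT1F and the brighter MT2A probe set and down for MT1G and MT1H. For MT1M, MT2A and MT3 the red bars of 1 gene point both ways. The tallest blue bar, 0.62, is that of the dimmer MT2A probe set.

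Across the 4 arrays, the knockdown arrays correlated at 0.996, the control arrays at 0.998 and arrays of different groups at 0.902 to 0.904, over all probe sets. ELK3 read 8.09 and 7.92 in the knockdown arrays and 10.05 and 10.07 in the control arrays. All 6 mesenchymal markers checked (VIM, FN1, SPARC, CDH2, ZEB1 and CD44) were lower in the knockdown arrays, where 21.3% of all genes fell. Their mean log2 signal was 10.27 to 10.37 in the knockdown arrays and 12.91 to 12.94 in the controls. Of 6 epithelial markers KRT8 and KRT18 were higher, where 29.5% of all genes rose, and CDH1, EPCAM, ESR1 and GATA3 did not pass. The epithelial list means were 7.999 to 8.16 in the knockdown arrays and 6.78 to 6.82 in the controls. The means of 4 immune markers were 5.14 to 5.20 in the knockdown arrays and 5.23 to 5.29 in the controls, and none of them passed. Those of 3 endothelial markers were 5.67 to 5.84 in the knockdown arrays and 6.06 to 6.11 in the controls. Of these, PECAM1 fell (log2 difference -0.58, limma adjusted p = 0.00942), and CDH5 and VWF did not pass. The part of these shifts in the metallothionein differences was not tested.

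Of 17 measured genes that flank the cluster, 5 fell, 4 rose and 8 did not pass, where 21.3% of all genes fell and 29.5% rose, so these counts are near the background. They had a median log2 difference of -0.02 beside -1.63 for the 9 metallothionein genes and -0.01 for all genes. On the side of MT3, the nearest of these 17 genes, BBS2, which encodes a subunit of the ciliary BBSome, rose by 1.07 (SE 0.15, adjusted p = 8.48e-04). It read 8.30 and 8.71 in the knockdown arrays and 7.53 and 7.33 in the control arrays. On the side of MT1X, NUP93, a nuclear pore subunit, read 10.57 and 10.52 in the knockdown arrays and 10.53 and 10.57 in the control arrays. Its difference of -0.0019 had a 95% interval from -0.16 to 0.15. Farther out, OGFOD1 (-0.74), GNAO1 (-0.41), NLRC5 (-1.35), RSPRY1 (-0.34) and ARL2BP (-0.49) fell, while PLLP (1.15), CIAPIN1 (0.45) and DOK4 (2.64) rose. Without cross-hybridising probe sets NLRC5 stood at -0.42 and DOK4 at 0.80. With averaged probe sets DOK4 stood at 1.72 and CIAPIN1 lost its call, at 0.20. GNAO1 and RSPRY1 each lost their call when either control array was left out. NUDT21 (0.22), SLC12A3 (-0.15), HERPUD1 (-0.07), CETP (-0.20), CPNE2 (0.14), COQ9 (0.15) and POLR2C (-0.02) did not pass. Of these, SLC12A3 passed with averaged probe sets, CPNE2 and COQ9 without knockdown replicate 1, and NUDT21 without knockdown replicate 5.

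**Figure D3:**
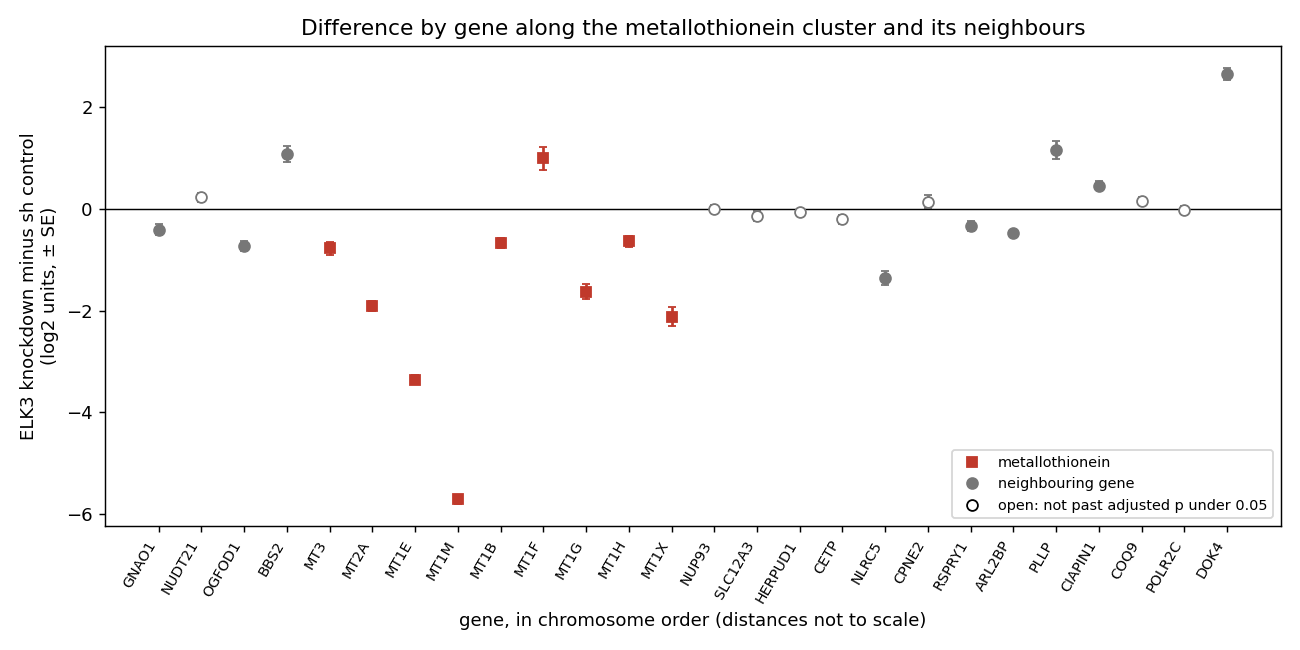
Difference in log2 signal, ELK3 knockdown minus sh control with its SE (vertical axis), for 9 metallothionein genes (red squares) and 17 neighbouring genes (grey circles) in chromosome order, each gene by its brightest probe set. Within the cluster MT1F, at 0.99, stands above 0 between MT1B at -0.67 and MT1G at -1.63. The metallothionein probe sets shown, except those of MT1B and MT1G, have names that mark cross-hybridisation. Open symbols did not pass an adjusted p of 0.05.

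Within the cluster, the difference by each gene's brightest probe set changed from gene to gene. All these probe sets but those of MT1B and MT1G have names that mark cross-hybridisation. A difference may therefore not belong to the named gene alone. In chromosome order the differences were -0.78 for MT3, -1.91 for MT2A, -3.35 for MT1E, -5.70 for MT1M and -0.67 for MT1B. They were 0.99 for MT1F, -1.63 for MT1G, -0.64 for MT1H and -2.12 for MT1X. The unmarked MT3 probe set stood at -0.18 and did not pass. The largest falls, those of MT1M and MT1E, were measured in adjacent measured genes. MT1IP, a pseudogene of the cluster, had 1 of 4 probe sets lower (-0.64, limma adjusted p = 0.0296), and its name marks cross-hybridisation. The 3 probe sets of MT1DP did not pass. MT4, known from stratified epithelium, read 5.13 and 5.10 in the knockdown arrays and 5.48 and 5.32 in the control arrays and did not pass (log2 difference -0.29, adjusted p = 0.0712 over all probe sets).

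Among regulators of metallothionein transcription, 5 of 13 rose (29.5% of all genes did), 3 fell (21.3% of all) and 5 did not pass. MTF1, which encodes the metal-sensing factor, read 8.41 and 8.28 in the knockdown arrays and 8.50 and 8.64 in the control arrays. Its difference of -0.23 (95% interval -0.47 to 0.01, adjusted p = 0.107) did not pass, though it did with the mean of its 5 probe sets, at -0.38, and without knockdown replicate 1, at -0.29. NR3C1, the glucocorticoid receptor gene, was at 10.30 and 10.49 in the knockdown arrays and 10.96 and 10.93 in the control arrays (log2 difference -0.55, SE 0.08, adjusted p = 9.06e-04). NFE2L2, which encodes the oxidative stress factor NRF2, fell by 1.002 and KEAP1, its inhibitor, by 0.63 on the log2 scale. The mineralocorticoid receptor gene NR3C2 rose by 2.03, the coactivator gene EP300 by 1.24, the deacetylase gene HDAC3 by 0.97, SP1 by 0.51 and USF1 by 0.30. Without cross-hybridising probe sets NR3C2 stood at 0.58, and with its probe sets averaged at 1.30. USF1 lost its call when array medians were subtracted, at 0.28, with quantile normalization, at 0.29, and without knockdown replicate 5 or either control array.

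The SLC30A (ZnT) family of zinc transporters mostly moves zinc out of the cytosol. Of its 10 genes 3 fell, 1 rose and 6 did not pass, beside 21.3% lower and 29.5% higher over all genes. SLC30A1, the zinc exporter of the plasma membrane and a known target of MTF-1, had the largest change. It read 10.03 and 10.05 in the knockdown arrays and 11.46 and 11.54 in the control arrays, 2.75-fold lower (log2 difference -1.46, SE 0.06, adjusted p = 2.43e-06). The groups were far apart beside gaps of under 0.1 within them. The name of this probe set marks cross-hybridisation. Without such probe sets SLC30A1 stood at -1.12, and with its 2 probe sets averaged at -1.29. SLC30A6 (-0.54) and SLC30A7 (-0.57), transporters of the Golgi, fell, and SLC30A9 (0.24) rose. Without cross-hybridising probe sets SLC30A9 stood at -0.030, and it lost its call under most other settings.

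The SLC39A (ZIP) family moves zinc into the cytosol, and of 14 genes 5 rose, 5 fell and 4 did not pass, against 29.5% higher and 21.3% lower over all genes. SLC39A4, the intestinal zinc importer mutated in acrodermatitis enteropathica, read 9.37 and 9.22 in the knockdown arrays and 7.50 and 7.60 in the control arrays, 3.35-fold higher (log2 difference 1.74, SE 0.10, adjusted p = 8.72e-06). SLC39A6, a zinc importer also known as LIV-1, read 10.03 and 10.07 in the knockdown arrays and 11.67 and 11.68 in the control arrays, 3.08-fold lower (log2 difference -1.62, SE 0.06, adjusted p = 1.23e-06). SLC39A14, a zinc, manganese and iron importer, read 11.53 and 11.40 in the knockdown arrays and 13.06 and 13.06 in the control arrays, 3.02-fold lower (log2 difference -1.59, SE 0.06, adjusted p = 1.12e-06). These 3 differences were each many times the gap between arrays of a group. SLC39A8, a related importer, rose by 1.30, or by 0.36 when its probe sets were averaged.

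**Figure D4:**
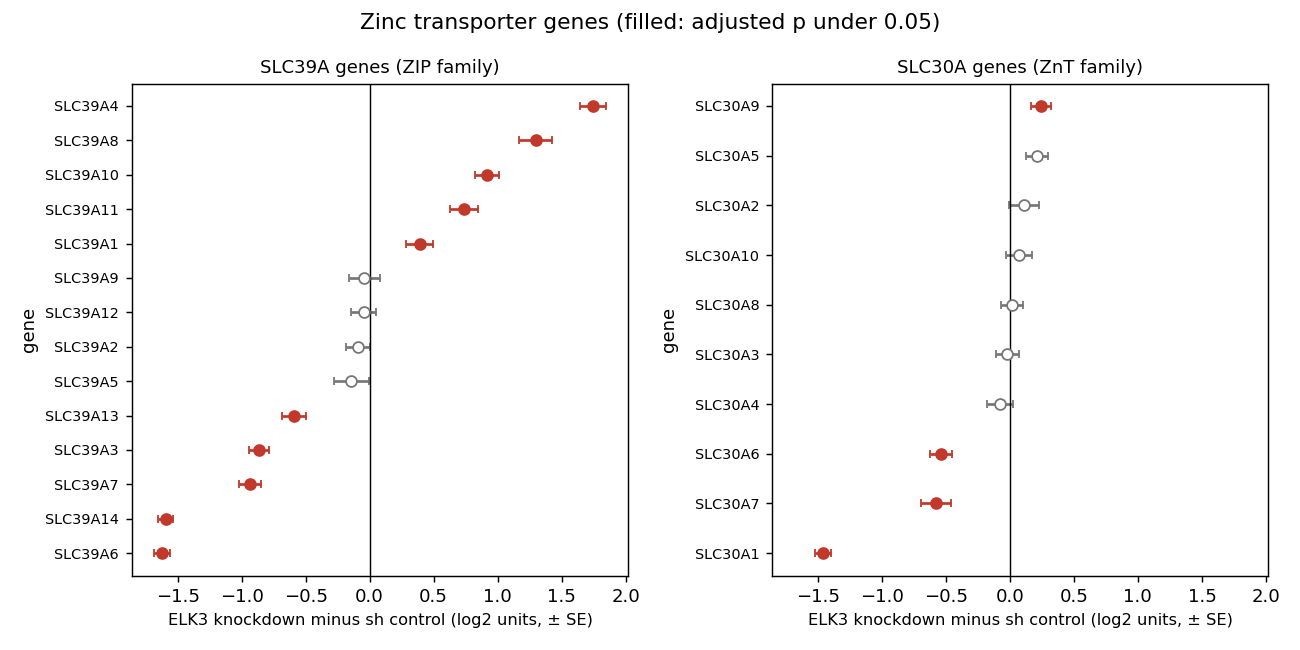
Difference in log2 signal, ELK3 knockdown minus sh control with its SE (horizontal axis), for 14 SLC39A and 10 SLC30A zinc transporter genes (vertical axis), each by its brightest probe set; filled red symbols passed an adjusted p of 0.05. The SLC39A genes spread from SLC39A6 at -1.62 to SLC39A4 at 1.74, and the SLC30A gene farthest from 0 is SLC30A1 at -1.46.

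Copper handling genes, read because metallothioneins also bind copper, rose in 7 of 16 and fell in 5, where 29.5% of all genes rose and 21.3% fell. ATP7B, the copper-exporting ATPase of Wilson disease, read 9.14 and 9.25 in the knockdown arrays and 6.05 and 6.07 in the control arrays, 8.82-fold higher (log2 difference 3.14, SE 0.10, adjusted p = 7.58e-07). With the mean of its 3 probe sets ATP7B stood at 1.17. ATP7A, the related ATPase of Menkes disease, rose by 1.61, or 0.90 with that mean, and STEAP2, a metalloreductase, by 1.52. STEAP1 fell by 1.03 and stood at -0.54 with its 2 probe sets averaged. SLC31A1, the copper importer, read 9.31 and 9.30 in the knockdown arrays and 9.17 and 9.28 in the control arrays and did not pass.

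Genes known to respond to glucocorticoids, which also induce MT2A, rose in 5 of 12, fell in 6 and did not pass in 1, beside 29.5% and 21.3% of all genes that rose and fell. FKBP5, a chaperone of steroid receptors, rose by 2.21, while the transcription factor gene CEBPD fell by 3.11 on the log2 scale. The kinase gene SGK1 fell by 2.22 (SE 0.29). It read 8.62 and 7.58 in the knockdown arrays, a gap of 1.04, and 10.33 and 10.31 in the control arrays. The growth arrest gene GADD45A stood at -1.88. Averaging its 6 probe sets put FKBP5 at 1.48, and without cross-hybridising ones CEBPD stood at -0.93. For glutathione and thioredoxin genes, which share thiol chemistry with metallothioneins, 7 of 11 rose and 4 fell, against the same shares of all genes. SLC7A11, the cystine importer that supplies cysteine, read 9.01 and 8.99 in the knockdown arrays and 11.27 and 11.35 in the control arrays, 4.95-fold lower (log2 difference -2.31, SE 0.07, adjusted p = 5.61e-07). The glutathione peroxidase gene GPX4 rose by 1.07, the glutathione synthetase gene GSS by 0.88 and GCLC, a subunit of glutamate-cysteine ligase, by 0.80.

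The genes whose 4 values ran most like those of MT2A were VASN, RIPK4, ALDH1A3, SLC4A7 and SMAD3. Likeness was the Euclidean distance between values centred on each gene's mean, over 4 arrays and 10378 genes brighter than the median, with the brighter MT2A probe set as the model. The distances were 0.0110, 0.0606, 0.0780, 0.0870 and 0.0941 log2 units in that order. VASN, which encodes a cell surface protein that binds TGF-beta, read 7.55 and 7.24 in the knockdown arrays and 9.27 and 9.35 in the control arrays. With 4 arrays in 2 groups, the order mostly reflects the size of the group difference and the gap between the knockdown arrays.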

How the data were processed

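RNA of 4 Hs578T samples was hybridised to 4 one-colour Affymetrix arrays. The authors deposited log2 signal values made with RMA, per the submitters' processing notes, which state neither its version nor its steps. The array medians were 6.76 to 6.80. Arrays have no read depth, so their number limits the precision. Of the 49293 probe sets, 44988 carry 1 gene symbol in the platform's annotation, 1832 several and 2473 none listed. No build is stated for the deposited values, so the gene table of GRCh38.p14 served only for gene order, and RefSeq promoters carry their own build. The comparison used limma 3.58.1 under R 4.3.3 (lmFit, eBayes with an intensity trend, 2 residual degrees of freedom, two-sided), with Benjamini-Hochberg adjustment over all probe sets for the metallothionein probe sets and over 18132 genes, each by its brightest probe set, for gene-level values and context lists. Metallothionein values are from the probe set fit unless given per gene. In that fit the variance prior from all probe sets carried 4.95 degrees of freedom beside the 2 residual ones. With 2 arrays against 2, an exact permutation test of a single value cannot give a p below 0.333. The members and lists were chosen with earlier results of these data known. The text names every member and, with values, up to 4 members of a context list by size of change. It also names MTF1, SLC30A1, NR3C1, NFE2L2, the cluster's neighbours, the cell type markers and the 5 genes most like the brightest member. KEAP1, SP1 and USF1 are given with values beyond the 4 largest changes of the regulators. SLC31A1 and the metallothionein symbols outside the list were added after their values were seen. Alternatives were no trend, robust moderation, quantile normalization, subtracted array medians, dim features left out, other thresholds, cross-hybridising probe sets left out, the mean of probe sets and leaving out each array. Figures used matplotlib 3.10.9.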

Additional observations from a re-analysis of the deposited data

How the results depend on the processing

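No paired analysis was possible because the groups share only replicate number 1. The 13 falls among the 16 probe sets kept their direction and call under every alternative that kept them in the table, and the brightest MT1F probe set kept its rise. Without cross-hybridising probe sets, 4 of 5 metallothionein probe sets and 4 of 5 genes passed, all lower, beside 15 of 16 and 9 of 9. Of the 9 genes, 4 then had no probe set left, and the MT3 gene did not pass because its remaining probe set stood at -0.18. By gene over all alternatives, log2 differences ran from -6.14 to -5.63 for MT1M, -3.38 to -3.34 for MT1E and -2.46 to -1.78 for MT1X. They ran from -2.07 to -1.58 for MT2A, -1.85 to -1.42 for MT1G and -0.92 to -0.18 for MT3. The ranges were -0.73 to -0.56 for MT1H, -0.69 to -0.66 for MT1B and 0.61 to 1.37 for MT1F. With the selection of the series (fold over 1.5 and unadjusted p under 0.05), 31.7% of all genes passed. The counts were 6 of 16 copper handling genes, 7 of 11 glutathione genes, 5 of 11 iron handling genes and 5 of 17 neighbours. Regulators had 5 of 13, zinc exporters 1 of 10 and heat shock genes 1 of 10. Zinc importers and glucocorticoid targets, whose counts moved less, are not listed. No share of all features is given for the other settings, so their counts cannot be set against a background. The 5 heat shock calls were 3 without a trend, 3 at an adjusted p under 0.01, 3 without cross-hybridising probe sets and 3 to 8 with 1 array left out. Iron handling had 6 without cross-hybridising probe sets, where FTL, NCOA4 and PCBP1 had no probe set left. The sign turned for the COQ9 gene with the mean of probe sets (-0.0148) and for the SLC30A9 gene without cross-hybridising ones (-0.0303). With 1 array left out it turned for the CPNE2 gene (-0.0277 to 0.308), the NUP93 gene (-0.0273 to 0.0235) and the POLR2C gene (-0.12 to 0.0704). None of these 3 passed with all arrays, and CPNE2 passed without knockdown replicate 1, at its highest value. The cause was not tested. The effects of low signal in MT1M and of high signal in MT2A on their folds were not tested.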

Other observations

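Of 11 iron handling genes 6 were lower and 4 higher, where 21.3% of all genes were lower and 29.5% higher. TFRC, the transferrin receptor gene, read 11.53 and 11.72 in the ELK3 knockdown arrays and 13.03 and 12.98 in the sh control arrays, 2.60-fold lower (log2 difference -1.38, SE 0.07, limma adjusted p = 4.82e-06). HMOX1, the heme-degrading oxygenase gene, read 8.57 and 8.11 in the knockdown arrays and 9.81 and 9.72 in the control arrays, 2.67-fold lower. SLC40A1, the iron exporter ferroportin, rose by 1.38, and NCOA4, the cargo receptor for ferritin breakdown, by 1.11. SLC40A1 read 5.57 and 5.53 in the knockdown arrays and 4.12 and 4.21 in the control arrays. All these signals were below the median of all array values, 6.78, and the effect of low signal was not tested.

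Heat shock genes, of which heavy metals induce several, fell in 3 of 10, rose in 2 and did not pass in 5, which is near the 21.3% and 29.5% of all genes that fell and rose. HSPA1B, an inducible HSP70 gene with a close paralog that its cross-hybridising probe set may also read, was at 13.30 and 13.23 in the knockdown arrays and 10.93 and 10.75 in the control arrays, 5.38-fold higher (log2 difference 2.43, SE 0.07, adjusted p = 5.13e-07). HSPA6, another inducible HSP70 gene, was at -0.41 and lost its call without knockdown replicate 1 (-0.34) or control replicate 1 (-0.29).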
